A study of Mus musculus with 12 samples.

Results

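The 10 genes described here were chosen by name and belong to the defence against reactive oxygen, namely the forkhead transcription factors Foxo1, Foxo3 and Foxo4, the stress regulators Nfe2l2 and Keap1, and the enzymes Sod1, Sod2, Cat, Gpx1 and Gpx4. Of these 10 genes, 9 have a row among the 14143 genes of the expression table, and all 9 passed the filter on low values that left 10900 genes for testing. Sod1 was not analysed here. RNA was sequenced from hematopoietic stem cells (HSCs), the bone marrow cells that maintain all blood lineages, of female C57BL6J mice. Old Ly-HSCs and old My-HSCs came from mice aged 18 months, and young Ly-HSCs and young My-HSCs from mice aged 8 to 10 weeks by the sample characteristics, with 12 weeks as the upper bound in the protocol. All 4 groups were sorted as lineage-negative Sca-1+ c-kit+ cells without CD48 and CD135, and a low or a high CD150 signal defined the lymphoid-biased (Ly) or the myeloid-biased (My) subset. No group carried a transgene, a deletion or a treatment by the labels. Each group has 3 libraries from independent groups of mice, and a p-value here reflects how much libraries of the same group differed from each other. Same-numbered old Ly and old My libraries were regarded as paired, while the main fit took all libraries as independent.

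FoxO proteins are held in the cytoplasm when AKT, activated by insulin and growth factor signals through PI3K, phosphorylates them, and they enter the nucleus and activate stress-resistance genes when that signal is low. NRF2, the protein made from Nfe2l2, is bound by KEAP1 and marked for degradation, and it escapes KEAP1 under oxidative stress and induces detoxifying enzymes through antioxidant response elements. Superoxide dismutases turn superoxide into hydrogen peroxide, which catalase and the glutathione peroxidases remove. In mice, loss of FoxO factors raises reactive oxygen in HSCs and exhausts them, and both FoxO and NRF2 activity are set largely on the protein, which RNA levels do not show.

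The regulator NRF2 is shown by its promoter, since among the measured members it alone has the core of the antioxidant response element in the RefSeq window that runs from 250 bases before to 50 bases after the start (assembly GRCm38.p6). The core was searched on both strands as TGACNNNGC. Gclm and Srxn1, NRF2 targets described further on, are shown beside it because they also have a match, and capitals mark the matches. The windows are chr2:75704614-75704913 on the minus strand for Nfe2l2, chr3:122245307-122245606 on the plus strand for Gclm and chr2:152105274-152105573 on the plus strand for Srxn1.
Nfe2l2: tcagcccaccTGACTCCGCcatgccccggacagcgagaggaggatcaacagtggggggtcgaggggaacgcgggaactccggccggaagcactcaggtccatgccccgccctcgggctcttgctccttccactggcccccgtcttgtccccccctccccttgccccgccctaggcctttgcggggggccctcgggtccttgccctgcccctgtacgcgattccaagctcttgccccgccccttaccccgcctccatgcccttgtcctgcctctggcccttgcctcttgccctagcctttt
Gclm: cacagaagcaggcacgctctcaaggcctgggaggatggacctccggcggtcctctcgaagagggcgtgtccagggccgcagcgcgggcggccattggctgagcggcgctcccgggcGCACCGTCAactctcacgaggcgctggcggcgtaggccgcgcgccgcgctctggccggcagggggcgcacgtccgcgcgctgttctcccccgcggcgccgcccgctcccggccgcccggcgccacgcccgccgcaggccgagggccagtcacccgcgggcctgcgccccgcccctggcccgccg
Srxn1: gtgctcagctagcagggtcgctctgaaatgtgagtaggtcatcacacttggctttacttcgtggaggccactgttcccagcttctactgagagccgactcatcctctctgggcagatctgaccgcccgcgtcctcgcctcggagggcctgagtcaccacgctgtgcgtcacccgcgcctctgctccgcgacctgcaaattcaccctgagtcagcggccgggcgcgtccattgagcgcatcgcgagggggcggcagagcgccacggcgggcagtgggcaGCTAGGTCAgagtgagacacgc
The match in Nfe2l2 reads TGACTCCGC and its leftmost base lies at -240 from the start. The matches in Gclm and Srxn1 are on the opposite strand, and their leftmost bases lie at -134 and 29. A window was at hand for 8 of the 9 measured members, and 1 of the 8 had the core. The share over all gene symbols was 14.0%, and over all 32851 windows 12.4%. Among genes known as NRF2 targets, 7 of the 18 with a window had it, namely Gclm, Txnrd1, Srxn1, G6pdx, Pgd, Me1 and Abcc4, while 14.0% of the 27025 gene symbols had it in at least 1 window. The FoxO element GTAAACA, searched on both strands, was in 0 of the 8 members and in 5 of 22 known FoxO targets, namely Bcl2l11, Bbc3, Sesn1, Txnip and Trim63. It was in at least 1 window for 4.1% of the gene symbols, and in 3.6% of all windows. A match describes the letters in a window and does not show binding.

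The values are FPKM, fragment counts scaled by transcript length and by library total, so levels can be set beside each other between genes. Read totals are removed by this unit and the depth is unknown. FPKM summed to between 211455 and 228391 per library, and 12.1% to 34.1% of genes were listed at 0, with the highest shares, 25.0% to 34.1%, in young Ly-HSCs. The young Ly libraries also spread most, with a median SD over tested genes of 0.675 on the log2(FPKM + 1) scale, against 0.349 in old Ly-HSCs, 0.278 in old My-HSCs and 0.428 in young My-HSCs. Of 12 HSC genes 10 were in the table, and their summed FPKM ran from 388.1 to 431.5 in old Ly-HSCs, 425.7 to 562.2 in young Ly-HSCs, 552.2 to 607.5 in old My-HSCs and 552.7 to 600.7 in young My-HSCs. Slamf1, which encodes the sort antigen CD150, was at 15.01 to 35.3 FPKM in the My libraries and 1.39 to 8.33 FPKM in the Ly libraries. Library 1 of each old subset stood apart in myeloid genes, with summed FPKM of the 4 measured granulocyte markers out of 15 (Prtn3, Mmp9, Itgam, Cebpe) at 298.8 in old Ly-HSC library 1 and 309.0 in old My-HSC library 1. In the other libraries that sum was 78.4 and 83.0 in old Ly-HSCs, 1.79 to 58.7 in young Ly-HSCs, 109.1 and 111.1 in old My-HSCs, and 14.2 to 42.4 in young My-HSCs. Granulocyte sums were thus higher in every old library than in every young library of the same subset, also without the libraries numbered 1. In Ly-HSCs only Prtn3 separated the ages, at 53.97 to 69.7 FPKM in old and 1.42 to 34.4 FPKM in young libraries. Itgam, Mmp9 and Cebpe overlapped there. In My-HSCs each of the 4 markers separated the ages. The same 2 libraries were highest in the 8 measured erythroid markers out of 13, at 111.5 summed FPKM in old Ly-HSC library 1 and 80.4 in old My-HSC library 1, with at most 29.8 in any other library. Summed FPKM of 8 of 9 monocyte markers was 14.2 to 49.9 in old Ly-HSCs, 0.0473 to 19.7 in young Ly-HSCs, 11.5 to 44.1 in old My-HSCs and 18.1 to 46.2 in young My-HSCs. Monocyte sums thus overlapped between the ages in both subsets. For 5 of 8 megakaryocyte markers the sums were 59.4 to 98.8 in old Ly-HSCs, 46.4 to 60.5 in young Ly-HSCs, 71.0 to 103.4 in old My-HSCs and 46.7 to 67.7 in young My-HSCs. For 6 of 7 B lineage markers they were 6.17 to 23.2 in old Ly-HSCs, 0.114 to 18.2 in young Ly-HSCs, 7.55 to 20.8 in old My-HSCs and 2.93 to 26.1 in young My-HSCs. For 9 of 10 T and NK markers they were 14.4 to 19.3 in old Ly-HSCs, 23.2 to 38.5 in young Ly-HSCs, 34.2 to 36.9 in old My-HSCs and 20.4 to 29.0 in young My-HSCs. No measured marker was at 0 in all 12 libraries, and Cebpe was listed at 0 in all young My libraries.

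The glutathione peroxidase Gpx1 was the most abundant of the 9 genes, with a mean of 157.0 FPKM over the 12 libraries, above 99.5% of all genes in the table. Catalase followed at 59.2 FPKM, then Foxo3 at 45.3, Gpx4 at 45.1, Nfe2l2 at 38.6, Keap1 at 25.5, Foxo4 at 21.5, Sod2 at 19.2 and Foxo1 at 5.46 FPKM. Only 2 neighbours in this order were separated in all libraries, Gpx1 from Cat and Sod2 from Foxo1, and the other neighbours overlapped in range. Foxo3 and Gpx4 could not be ranked, since Foxo3 was above Gpx4 in 5 of the 12 libraries. Cat varied least, with a highest library 1.78 times its lowest, and Nfe2l2 varied most, at 4.26 times.

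**Figure D1:**
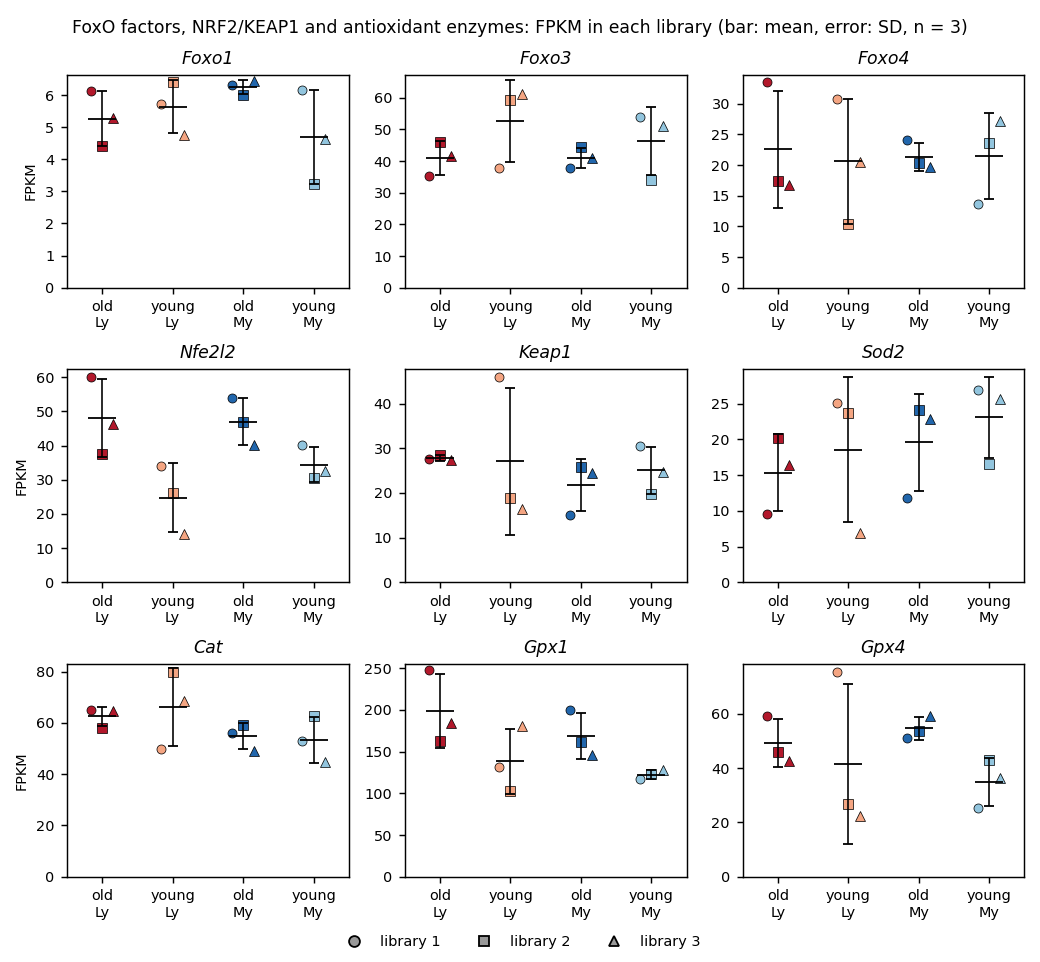
FPKM of the 9 measured genes (y axis, linear, from 0) in each of the 12 libraries, by group on the x axis; points are libraries, bars are group means and error bars SDs (n = 3). Nfe2l2 lies higher in every old library than in every young library of its subset, by 40.3 against 40.2 FPKM at the nearest pair in My-HSCs, while the FoxO factors overlap between ages.

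Foxo3, the FoxO factor on which HSC maintenance depends most in mice, was the leading FoxO transcript in every library. It made up 47.0% to 77.9% of the summed FoxO FPKM (median 62.2%), Foxo4 13.7% to 44.8% (median 29.1%) and Foxo1 5.33% to 9.62% (median 8.21%). Foxo3 (GRCm38, chromosome 10, 42181841 to 42276755, minus strand) was at 35.3, 46.1 and 41.7 FPKM in old Ly-HSCs, against 37.7, 59.3 and 61.1 FPKM in young Ly-HSCs. It was at 37.9, 44.4 and 40.9 FPKM in old My-HSCs, against 54.0, 33.9 and 51.0 FPKM in young My-HSCs. The ages overlapped in both subsets, with the 2 highest levels of all in young Ly-HSC libraries. The log2 fold change of FPKM + 1, old minus young, was -0.33 ± 0.24 in Ly-HSCs (limma, adjusted p = 0.573, SE after ±) and -0.24 ± 0.17 averaged over both subsets (limma, adjusted p = 0.568).

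Foxo4, a family member encoded on the X chromosome (101254528 to 101260873, plus strand), was at 33.6, 17.4 and 16.8 FPKM in old Ly-HSCs, against 30.8, 10.4 and 20.6 FPKM in young Ly-HSCs. In My-HSCs it was at 24.0, 20.3 and 19.7 FPKM in old mice, against 13.6, 23.6 and 27.1 FPKM in young mice. The young Ly libraries alone spanned most of the range of the gene, and no difference in age or subset was larger than its standard error. Foxo1, which in lymphocytes controls homing and receptor genes, was the lowest member (chromosome 3, 52268336 to 52353221, plus strand). It was at 6.11, 4.41 and 5.28 FPKM in old Ly-HSCs, against 5.73, 6.41 and 4.77 FPKM in young Ly-HSCs, and at 6.31, 6.02 and 6.44 FPKM in old My-HSCs, against 6.17, 3.24 and 4.64 FPKM in young My-HSCs. The ages overlapped in both subsets, and no Foxo1 difference was larger than its standard error. The antisense gene Gm20402 overlaps Foxo1, and no source used here says whether counting used strand. Gm38034, on the same strand as Foxo1, overlaps it over 2069 bp. Both overlaps leave the Foxo1 values uncertain to that extent.

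Nfe2l2, which encodes NRF2 (chromosome 2, 75675513 to 75704641, minus strand), was higher in old than in young HSCs in both subsets without passing the adjusted threshold. It was at 60.1, 37.5 and 46.5 FPKM in old Ly-HSCs, against 34.1, 26.05 and 14.1 FPKM in young Ly-HSCs. In My-HSCs it was at 53.9, 46.9 and 40.3 FPKM in old mice, against 40.2, 30.5 and 32.5 FPKM in young mice. Every old library lay above every young library of the same subset, which was so for 2.44% of all tested genes in both subsets at once (266 genes). The group means were 48.0 ± 11.4 FPKM in old Ly-HSCs and 24.7 ± 10.1 FPKM in young Ly-HSCs, and 47.0 ± 6.80 FPKM in old My-HSCs and 34.4 ± 5.11 FPKM in young My-HSCs (SD, n = 3 each). The log2 fold change was 0.99 ± 0.30 in Ly-HSCs (95% interval 0.35 to 1.63, limma, adjusted p = 0.19), 0.44 ± 0.30 in My-HSCs (95% interval -0.20 to 1.08, adjusted p = 0.88) and 0.71 ± 0.21 averaged over both subsets (95% interval 0.26 to 1.17, adjusted p = 0.144). The difference between the 2 age effects, My minus Ly, was -0.55 ± 0.42 (limma interaction, adjusted p = 0.934), so the larger value in Ly-HSCs was not shown to differ from that in My-HSCs. In bulk RNA, fewer cells of a type and less RNA per cell cannot be told apart. Library 1 was highest in Nfe2l2 in all 4 groups. In both old subsets it was also highest in granulocyte and erythroid markers. Among young Ly-HSCs, however, it had the lowest granulocyte sum (1.79 FPKM) and a middle erythroid sum (8.27 FPKM). Among young My-HSCs it had the lowest erythroid sum (0.0757 FPKM) and a middle granulocyte sum (29.5 FPKM). The part of granulocyte and erythroid cells in the Nfe2l2 result was not tested. Without the 4 libraries numbered 1, the Nfe2l2 difference averaged over both subsets was 0.77 on the log2 scale (limma, adjusted p = 0.158). The granulocyte sums of the ages do not overlap in those remaining libraries either, so leaving out library 1 does not remove the marker difference. In Ly-HSCs that difference rests on Prtn3, since Itgam, Mmp9 and Cebpe overlap between the ages.

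Keap1, the adaptor that delivers NRF2 to the CUL3 ubiquitin ligase (chromosome 9, 21229730 to 21239361, minus strand), did not follow Nfe2l2. It was at 27.5, 28.6 and 27.5 FPKM in old Ly-HSCs, against 46.0, 18.9 and 16.4 FPKM in young Ly-HSCs, and at 15.2, 25.9 and 24.5 FPKM in old My-HSCs, against 30.5, 19.9 and 24.8 FPKM in young My-HSCs. The old Ly libraries agreed to within about 1 FPKM while the young Ly libraries ran over almost the whole range of the gene. All 3 old My libraries lay below the 3 old Ly libraries, as 7.53% of all tested genes did, and the My minus Ly difference in old mice was -0.37 ± 0.36 on the log2 scale (limma, adjusted p = 1). The antisense gene Gm16754 overlaps Keap1 over 3317 bp, so the Keap1 level is uncertain in the same way as the Foxo1 level is through Gm20402.

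Sod2, the manganese superoxide dismutase of mitochondria (chromosome 17, 13006846 to 13040063, plus strand), was at 9.50, 20.2 and 16.4 FPKM in old Ly-HSCs, against 25.1, 23.7 and 6.86 FPKM in young Ly-HSCs. In My-HSCs it was at 11.8, 24.1 and 22.9 FPKM in old mice, against 27.0, 16.6 and 25.7 FPKM in young mice. The groups overlapped, and no age difference was larger than its standard error. Catalase, the peroxisomal enzyme that splits hydrogen peroxide (Cat, chromosome 2, 103453849 to 103485160, minus strand), was the steadiest member, at 64.8, 58.2 and 64.5 FPKM in old Ly-HSCs, against 50.0, 79.8 and 68.6 FPKM in young Ly-HSCs. It was at 56.0, 59.2 and 49.2 FPKM in old My-HSCs, against 53.0, 62.7 and 44.8 FPKM in young My-HSCs. No age difference of Cat was larger than its standard error, and the 95% interval of its old minus young difference averaged over both subsets ran from -0.32 to 0.31 on the log2 scale.

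Gpx1, the cytosolic selenoenzyme that reduces hydrogen peroxide with glutathione (chromosome 9, 108338903 to 108340343, plus strand), was the second member that stood higher in old HSCs without passing the adjusted threshold. It was at 247.8, 162.9 and 184.5 FPKM in old Ly-HSCs, against 131.5, 103.1 and 180.2 FPKM in young Ly-HSCs, so 1 young library lay within the old range. In My-HSCs it was at 199.3, 161.3 and 146.2 FPKM in old mice, against 116.7, 123.6 and 127.4 FPKM in young mice, with no overlap. The log2 fold change was 0.53 ± 0.22 in Ly-HSCs (limma, adjusted p = 0.318), 0.45 ± 0.22 in My-HSCs (adjusted p = 0.72) and 0.49 ± 0.15 averaged over both subsets (95% interval 0.16 to 0.82, adjusted p = 0.159). Old library 1 was again the highest of each subset, and without the 4 libraries numbered 1 the average difference was 0.32 (limma, adjusted p = 0.442), which is smaller by over 1.5 times.

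Gpx4, the selenoenzyme that reduces lipid peroxides in membranes and protects from ferroptosis (chromosome 10, 80047166 to 80056439, plus strand), was at 59.3, 45.9 and 42.4 FPKM in old Ly-HSCs, against 75.2, 26.9 and 22.4 FPKM in young Ly-HSCs. It was at 50.9, 53.8 and 59.3 FPKM in old My-HSCs, against 25.4, 43.1 and 36.2 FPKM in young My-HSCs. Young Ly-HSC library 1 held the highest Gpx4 level of all and young Ly-HSC library 3 the lowest, while in My-HSCs the ages did not overlap. The log2 fold change was 0.43 ± 0.37 in Ly-HSCs (limma, adjusted p = 0.632), 0.66 ± 0.37 in My-HSCs (adjusted p = 0.805) and 0.55 ± 0.26 averaged over both subsets (adjusted p = 0.349). Young Ly-HSC library 1 decided the last value, which was 0.81 without it (limma, adjusted p = 0.0324). Gpx4 has a transcribed processed pseudogene, Gpx4-ps2, and no source used here says how reads shared between such copies were counted, which leaves its level uncertain.

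Over the 9 genes, limma called 0 in old against young Ly-HSCs, 0 in old against young My-HSCs and 0 averaged over both subsets, where 0.349%, 0.211% and 0.844% of all tested genes were called. At an unadjusted p under 0.05, Nfe2l2 and Gpx1 passed in Ly-HSCs and on average (2 of 9 each), where 13.3% and 14.7% of all tested genes did, and 0 of 9 passed in My-HSCs, where 7.21% did. Old libraries did not overlap young ones for 1 of 9 members in Ly-HSCs (Nfe2l2) and 3 of 9 in My-HSCs (Nfe2l2, Gpx1 and Gpx4), against 16% and 19.1% of all tested genes. The median log2 fold change of the 9 genes was 0.18 in Ly-HSCs and 0.04 in My-HSCs, beside 0.18 and 0.07 over all tested genes, and 5 of 9 in Ly-HSCs and 6 of 9 in My-HSCs were above 0, as were 62.4% and 55.8% of all tested genes. The FoxO factors, Keap1, Sod2 and Cat thus had no age difference past either threshold, with 95% intervals that for Foxo1, Foxo3, Foxo4, Keap1 and Sod2 reach beyond 0.5 in size on the log2 scale in each subset.

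**Figure D2:**
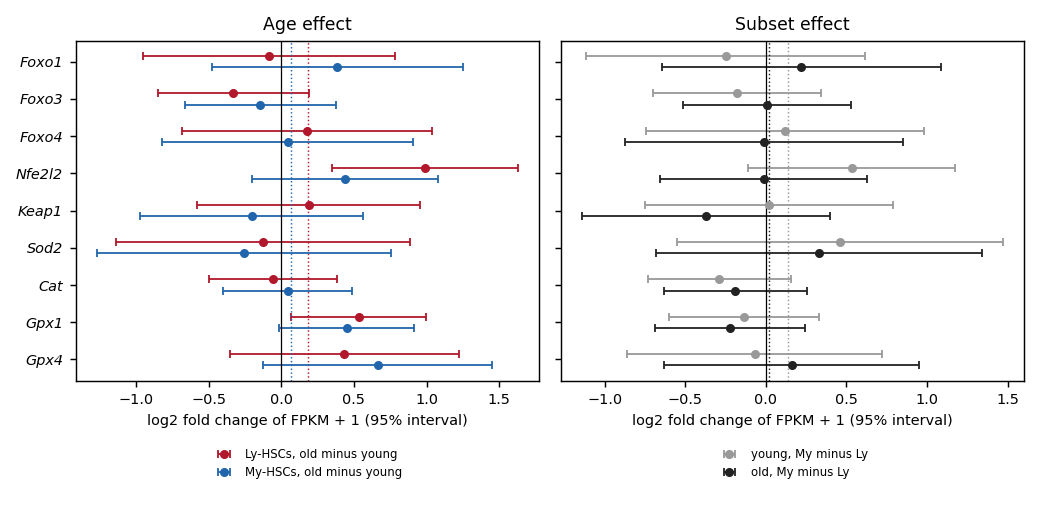
Log2 fold changes of FPKM + 1 (x axis) of the 9 measured genes, old minus young within each subset (left) and My minus Ly within each age (right); points are limma estimates, bars are 95% intervals from 3 libraries a group, and dotted lines are the medians over all 10900 tested genes. The interval of Nfe2l2 in Ly-HSCs, 0.35 to 1.63, and that of Gpx1 in Ly-HSCs, 0.07 to 1.00, leave out 0. All My minus Ly intervals include 0. The intervals use 1 spread per gene shared by all 4 groups. Young Ly libraries spread most over tested genes, so intervals that involve them may be too narrow.

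Between My-HSCs and Ly-HSCs, limma called 0 of 9 members in young mice and 0 of 9 in old mice, where 0.119% and 0.0275% of all tested genes were called. At an unadjusted p under 0.05 it was 0 of 9 at either age, beside 13.8% and 4.03% of all tested genes. My libraries did not overlap Ly libraries for 0 of 9 members in young mice and 1 of 9 in old mice (Keap1), against 13.4% and 16.7% of all tested genes. Nfe2l2 had the largest difference, 0.53 ± 0.30 on the log2 scale in young mice (34.4 ± 5.11 FPKM in young My-HSCs and 24.7 ± 10.1 FPKM in young Ly-HSCs, SD, n = 3 each; limma, adjusted p = 0.443), and its levels in old mice were 47.0 FPKM in My-HSCs and 48.0 FPKM in Ly-HSCs. Cat had a log2 difference of -0.29 ± 0.20 in young mice (limma, adjusted p = 0.552), with group means of 53.5 FPKM in young My-HSCs and 66.1 FPKM in young Ly-HSCs. Gpx1 averaged 168.9 ± 27.3 FPKM in old My-HSCs and 198.4 ± 44.1 FPKM in old Ly-HSCs (SD, n = 3 each), a log2 difference of -0.22 ± 0.22 (limma, adjusted p = 1). The age effect differed between the subsets for 0 of 9 members by limma's interaction test, as for 0% of all tested genes, of which 616 (5.65%) had an unadjusted p under 0.05, with 0 members among them.

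The signalling genes that set FoxO activity (PI3K, AKT, 14-3-3 proteins and modifiers, 33 tested of 37) showed 0 calls in either direction in any of the 4 comparisons of age or subset. Their median log2 fold change, old minus young, was -0.03 in Ly-HSCs and -0.06 in My-HSCs, beside 0.18 and 0.07 over all tested genes. Of all tested genes, 0.0275% to 0.349% were called in the 4 comparisons. Those shares also stand beside the 0 calls of the lists below. Crebbp, an acetyltransferase that modifies FoxO proteins, was at 34.3, 49.7 and 50.0 FPKM in old Ly-HSCs, against 57.6, 68.1 and 57.3 FPKM in young Ly-HSCs, with no overlap and a difference of -0.46 ± 0.19 (limma, adjusted p = 0.332). Akt1, which encodes a kinase of FoxO proteins, was at 55.5, 58.7 and 52.0 FPKM in old My-HSCs, against 84.1, 60.2 and 69.3 FPKM in young My-HSCs, with no overlap (-0.35 ± 0.18, limma, adjusted p = 0.776).

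Genes known from other cells as FoxO targets (22 tested of 27) also gave 0 calls in these comparisons. Of the 22, 14 were above 0 in Ly-HSCs and 14 in My-HSCs, with medians of 0.19 and 0.27, beside 62.4% and 55.8% of all tested genes above 0. Tnfsf10, the death ligand TRAIL, came closest to the threshold, at 12.6, 18.5 and 14.9 FPKM in old Ly-HSCs, against 7.85, 6.19 and 8.30 FPKM in young Ly-HSCs. In My-HSCs it was at 17.4, 34.8 and 28.2 FPKM in old mice, against 14.5, 13.5 and 8.82 FPKM in young mice. It was thus higher in every old library than in any young library of the same subset, by 0.99 ± 0.24 on the log2 scale on average (limma, adjusted p = 0.0846). S1pr1, a receptor that guides cell egress, was at 21.1, 13.6 and 17.6 FPKM in old Ly-HSCs, against 0.0515, 4.47 and 12.3 FPKM in young Ly-HSCs (log2 difference 2.10 ± 0.72, limma, adjusted p = 0.238). Fbxo32, a ubiquitin ligase subunit known as a FoxO target in muscle, was at 15.98, 11.5 and 8.70 FPKM in young My-HSCs, against 0.0694, 4.99 and 3.59 FPKM in young Ly-HSCs (2.04 ± 0.59, limma, adjusted p = 0.164).

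The partners and regulators of NRF2 other than KEAP1 (10 tested of 10) had 0 calls, with 8 of 10 above 0 in either subset in old against young (62.4% of all tested genes in Ly-HSCs and 55.8% in My-HSCs) and medians of 0.11 and 0.13. Nfe2l1, a relative of NRF2, was at 35.1, 39.8 and 33.6 FPKM in old My-HSCs, against 33.2, 21.1 and 29.5 FPKM in young My-HSCs, with no overlap (0.38 ± 0.22, limma, adjusted p = 0.82). Maff, a small MAF protein that pairs with NRF2 on DNA, differed more between libraries than between groups, at 46.0, 15.4 and 40.7 FPKM in old Ly-HSCs, against 1.06, 45.2 and 23.6 FPKM in young Ly-HSCs.

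Known NRF2 targets (20 tested of 23) had 0 calls, and 15 of 20 stood above 0 in Ly-HSCs and 14 of 20 in My-HSCs, beside the same all-gene shares of 62.4% and 55.8%. Their median log2 fold change, old minus young, was 0.57 in Ly-HSCs and 0.17 in My-HSCs, beside 0.18 and 0.07 over all tested genes, and quantile normalization brought these medians to 0.35 and 0.10 beside -0.01 and -0.02 over all tested genes. Nqo1, a quinone reductase, was at 10.6, 6.07 and 5.23 FPKM in old Ly-HSCs, against values listed at 0, 1.00 and 0.0654 FPKM in young Ly-HSCs, with no overlap (limma, adjusted p = 0.0982). It was at 3.61, 2.92 and 4.49 FPKM in old My-HSCs, against 5.63, 5.36 and 0.561 FPKM in young My-HSCs, where the ages overlapped. Me1, the cytosolic malic enzyme that makes NADPH, was at 2.22, 1.21 and 2.29 FPKM in old Ly-HSCs and listed at 0 in all 3 young Ly libraries (limma, adjusted p = 0.134), and was at 3.17, 2.12 and 2.38 FPKM in old My-HSCs, against 1.74, 1.47 and 1.39 FPKM in young My-HSCs. Gclm, the regulatory subunit of the enzyme that starts glutathione synthesis, was at 15.3, 14.6 and 11.9 FPKM in old Ly-HSCs, against 10.6, 9.22 and 11.6 FPKM in young Ly-HSCs. In My-HSCs Gclm was at 15.3, 14.3 and 14.6 FPKM in old mice, against 5.31, 11.03 and 8.74 FPKM in young mice, with no overlap in either subset and a My difference of 0.80 ± 0.33 (limma, adjusted p = 0.587). Srxn1, sulfiredoxin, which repairs oxidised peroxiredoxins, was at 25.3, 15.9 and 19.9 FPKM in old My-HSCs, against values listed at 0, 9.49 and 14.7 FPKM in young My-HSCs (limma, adjusted p = 0.758). Hmox1, the inducible heme oxygenase, was at 0.960, 1.01 and 1.98 FPKM in old My-HSCs, against 4.96, 5.92 and 6.67 FPKM in young My-HSCs, the opposite order to Gclm and also without overlap (limma, adjusted p = 0.82).

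Other enzymes of peroxide and thiol redox chemistry (24 tested of 31, among them Gclc, Gclm, Gsr, Srxn1 and Txnrd1 of the NRF2 targets) gave the 1 call among all these lists, Gpx3 in old against young averaged over both subsets. In that comparison 0.844% of all tested genes were called. Gpx3, the secreted plasma glutathione peroxidase, was at 12.0, 1.47 and 3.91 FPKM in old Ly-HSCs and listed at 0 in all 3 young Ly libraries. It was at 34.3, 11.8 and 10.2 FPKM in old My-HSCs, against 2.76, 2.22 and 0.0374 FPKM in young My-HSCs. It rose with age on average (limma, adjusted p = 0.0243) and passed in neither subset alone (adjusted p = 0.174 in Ly-HSCs and 0.192 in My-HSCs). The call was lost without old Ly-HSC library 1 (adjusted p = 0.05), old Ly-HSC library 3 (0.0602), old My-HSC library 1 (0.0667), old My-HSC library 2 (0.0625) or young My-HSC library 3 (0.054), and without the 4 libraries numbered 1 (limma, 0.0784). Old library 1 was the highest in Gpx3 in each subset and also in granulocyte and erythroid markers. Granulocyte sums separate the ages in both subsets as Gpx3 does, in Ly-HSCs through Prtn3 alone. The part of those cells in the result was not tested. Prdx5, a peroxiredoxin of mitochondria and peroxisomes, was at 65.3, 36.7 and 29.9 FPKM in old Ly-HSCs, against 3.18, 22.4 and 13.0 FPKM in young Ly-HSCs (1.94 ± 0.54, limma, adjusted p = 0.16). In My-HSCs its ages overlapped, at 73.9, 31.3 and 47.9 FPKM in old mice and 25.0, 42.4 and 26.0 FPKM in young mice. Of the 24, 13 were above 0 in Ly-HSCs and 16 in My-HSCs, against 62.4% and 55.8% of all tested genes, with medians of 0.37 and 0.48.

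**Figure D3:**
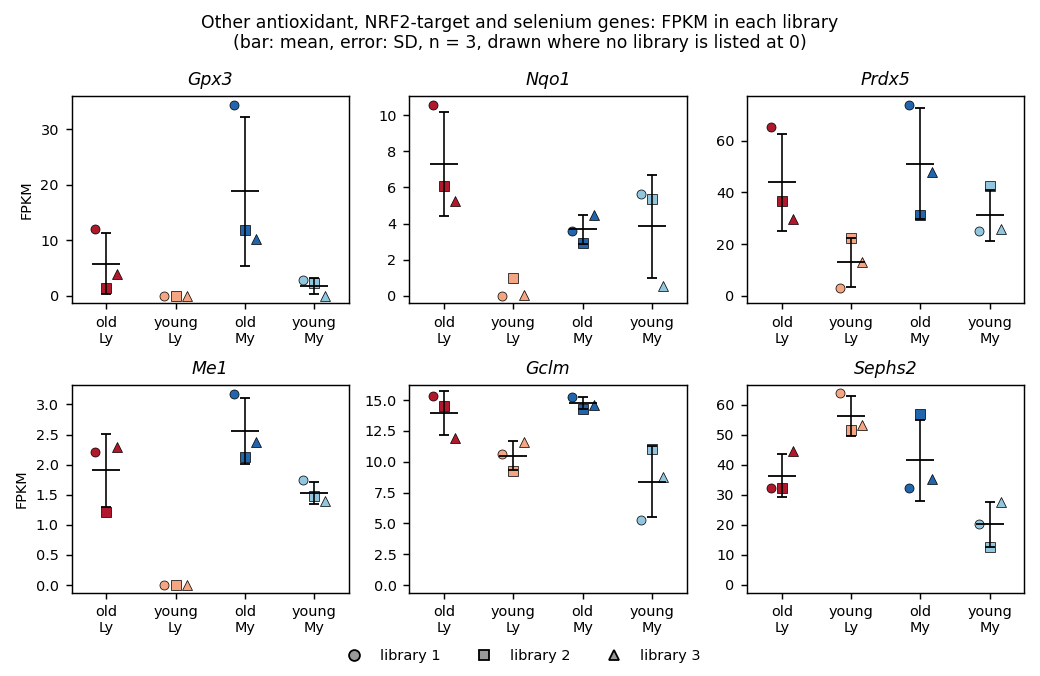
FPKM (y axis, linear) of 6 genes around the NRF2 and glutathione peroxidase arms in each of the 12 libraries, by group on the x axis; points are libraries, and group means with SD (n = 3) are drawn where no library is listed at 0. Gpx3 and Me1 are listed at 0 in all 3 young Ly libraries, and Sephs2 is higher in young Ly-HSCs than in young My-HSCs.

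GPX1 and GPX4 carry selenocysteine, and of the 6 tested genes that build it into proteins 0 were called in these comparisons. In young My against Ly, 5 of the 6 were above 0, beside 59.2% of all tested genes. Their median log2 fold change was 0.48, beside 0.135 over all tested genes, and Sephs2 ran opposite to the others. Under quantile normalization 4 of the 6 were above 0 there, with a median of 0.25. In old My against Ly, 2 of the 6 were above 0 (median -0.12), beside 52% of all tested genes. In old against young, 4 of the 6 were above 0 in Ly-HSCs (median 0.25) and 2 in My-HSCs (median -0.27), beside 62.4% and 55.8% of all tested genes. Sephs2, which makes the selenium donor, was at 20.4, 12.7 and 27.7 FPKM in young My-HSCs, against 64.0, 51.4 and 53.1 FPKM in young Ly-HSCs, with no overlap (log2 difference -1.49 ± 0.30, limma, adjusted p = 0.0608). In old mice the subsets overlapped, at 32.1, 56.9 and 35.2 FPKM in My-HSCs and 32.1, 32.4 and 44.7 FPKM in Ly-HSCs. Of the phagocyte NADPH oxidase subunits, a source of superoxide, 5 of 7 were tested and 0 were called. Rac1, a small GTPase of that complex, was at 87.6, 97.1 and 81.6 FPKM in old My-HSCs, against 55.2, 46.9 and 57.9 FPKM in young My-HSCs, with no overlap (0.73 ± 0.23, limma, adjusted p = 0.406). In Ly-HSCs its ages overlapped, at 62.0, 80.6 and 52.6 FPKM in old mice and 55.8, 58.4 and 94.8 FPKM in young mice.

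Across the 12 libraries the 9 genes did not form a single pattern. Pearson correlations of log2(FPKM + 1), given as a description of libraries that share their 4 groups, ran over the 36 pairs from -0.84 between Foxo3 and Gpx4 to 0.64 between Gpx4 and Nfe2l2. Foxo3 also ran opposite to Nfe2l2 (-0.65) and Foxo4 (-0.64), and Sod2 opposite to Gpx1 (-0.73), while Nfe2l2 and Keap1 stood at 0.31. By the highest correlation over the 12 libraries among all tested genes, the genes most like Nfe2l2 were Meis3 (0.93) and Recql5 (0.92), those most like Gpx1 were Pnpla8 (0.91) and Pld4 (0.90), and those most like Gpx4 were Slc25a13 (0.94) and Alkbh5 (0.93). For the FoxO factors they were 4430402I18Rik (0.95) and Cul9 (0.94) with Foxo3, Pik3r5 (0.90) and Rmi2 (0.90) with Foxo4, and Rnf125 (0.87) and Gnl3l (0.85) with Foxo1. Cat was most like Fgd2 (0.88) and Elovl1 (0.84), Sod2 most like Sec24a (0.95) and Atg4b (0.93), and Keap1 most like Tpgs2 (0.93) and Rab6b (0.93).

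**Figure D4:**
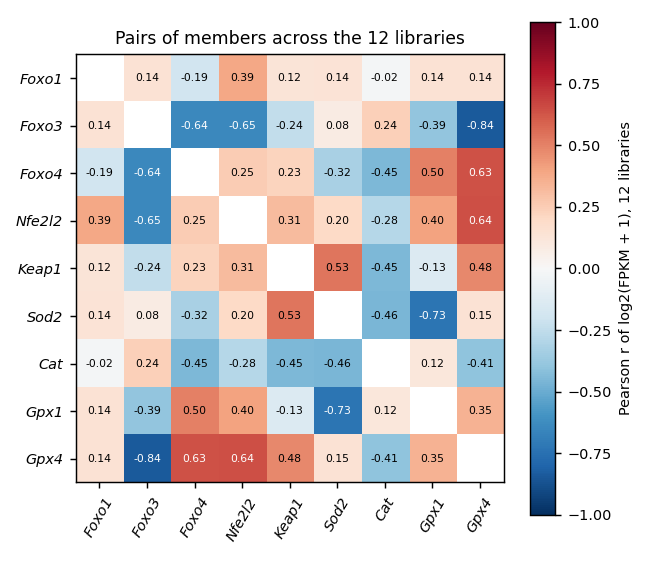
Pearson correlation of log2(FPKM + 1) between each pair of the 9 measured genes over the 12 libraries, as colour and printed value (rows and columns are genes). Foxo3 is negative with Gpx4 (-0.84), Nfe2l2 (-0.65) and Foxo4 (-0.64), and Gpx4 is positive with Nfe2l2 (0.64) and Foxo4 (0.63).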

How the data were processed

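The 9 measured genes and the gene lists were chosen with earlier results of these data known. The deposited table gives FPKM per gene and library, normalized by the authors per the labels; no source used here states its annotation, counting rule or use of strand. GRCm38 (mm10) is the build, and STAR, DESeq2 and bcl2fastq 2.17 are the tools, listed without a role in the submitters' processing notes. Libraries were made with a stranded KAPA mRNA kit, per the labels' protocols. Low values did not return whole reads, so the depth is unknown and no count test was run. Of 14143 gene identifiers, 14139 matched GENCODE M21, the source of the coordinates.

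Values were analysed as log2(FPKM + 1), for 10900 genes with an FPKM of 1 or more in 3 or more libraries, with limma 3.58.1 in R 4.3.3 (1 mean per group over all 12 libraries, trended prior, 8 residual and 5.11 prior degrees of freedom). A fold change on this scale understates the change of low genes. All tests were two-sided, p-values were adjusted by Benjamini-Hochberg across the tested genes, and genes were called at an adjusted p under 0.05. The scripts were tested on simulated data with known changes. Of 100 genes changed 2-fold, 9% were called in old against young Ly-HSCs and 6% in My-HSCs. For young My against Ly it was 11%, and for old My against Ly 6%. Of 100 genes changed 4-fold, 32% to 57% were called. False calls were 25 of 83 in old against young Ly-HSCs and 28 of 81 in young My against Ly. They were 0 in the other comparisons. A gene that was not called may thus still differ between groups. False calls arose only in the comparisons that involve young Ly-HSCs, the group with the largest spread. P-values in those comparisons may thus be too small. The comparison averaged over both subsets also includes young Ly-HSCs and was not simulated. Differences between groups are printed as a log2 fold change for a member where they exceed their standard error. My minus Ly differences averaged over both ages are not printed, also where they exceed it. From each pathway list the text takes genes among those called or among the 2 smallest p-values in each of the 4 comparisons, and for each member the 2 genes most correlated with it. A single gene among all that the rule picks is not reported here. Alternatives covered the pseudocount, filter, scaling, weights, replicate block and left-out libraries. Numbers are shared by the labels of all groups, and same-numbered old Ly and old My libraries deviated together (correlations 0.256, 0.233 and 0.21 over tested genes), so they were regarded as paired. All other same-numbered pairs were between -0.0386 and 0.0482. The main fit nevertheless had no replicate block and took all 12 libraries as independent. Standard errors of the age differences averaged over both subsets may thus be too small. The replicate block entered only as an alternative.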

Additional observations from a re-analysis of the deposited data

How the results depend on the processing

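None of the 9 members was called by limma in any comparison as reported, and 23 alternatives were tried. Leaving out 1 library at a time gave 0 to 1 calls in old against young averaged over both subsets, the 1 being Gpx4 without young Ly-HSC library 1 (adjusted p = 0.0324), and 0 in the other comparisons. The 19 member differences larger than their standard error kept their sign in all 418 recomputed values. Of the other 35, 29 changed sign in at least 1 alternative and 0 were called in any. With the replicate block the adjusted p of Nfe2l2 was 0.152 in Ly-HSCs and 0.114 on average, and the block, also within age, changed no member's call. Under quantile normalization, which centred all genes, the Nfe2l2 difference in Ly-HSCs was 1.01 (adjusted p = 0.2). The average Nfe2l2 difference ran from 0.54 to 0.85 over 21 alternatives (adjusted p 0.0569 to 0.28), and that of Gpx1 from 0.32 to 0.60 (0.0654 to 0.442).

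Counts over all tested genes depended much more on the setting: 0 to 223 calls in old against young Ly-HSCs (38 as reported), 0 to 71 in My-HSCs (23), 39 to 197 on average (92), 0 to 299 in young My against Ly (13) and 0 to 69 in old My against Ly (3, and 0 with the replicate block within age); the cause was not tested. Gpx3 also lost its call under quantile normalization (adjusted p = 0.0653) and with 1 weight per group (0.0892). Me1 was called in Ly-HSCs with a pseudocount of 0.1 (0.0392) and with no filter on low values (0.0351), and Nqo1 (0.0412) and Prdx5 (0.0365) in Ly-HSCs and Sephs2 (0.0374) and Fbxo32 (0.0468) in young My against Ly without young Ly-HSC library 2.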
